A study of Mus musculus with 6 samples.

Results

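Respiratory complex I was followed through the genes whose symbols begin with Nduf, which encode its nuclear subunits and a set of its assembly factors. Probe sets, the groups of array probes that report 1 stretch of a transcript, were taken where the platform annotation gave exactly 1 symbol of this kind. This gave 317 of 269751 probe sets and 41 of 23152 genes. By role, 6 genes were core subunits, 29 were accessory subunits and 4 were Ndufaf assembly factors. Ndufa4, now counted as a subunit of complex IV, and its relative Ndufa4l2 carry the same name stem and were kept apart.

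The cells were regulatory T cells (Tregs), the Foxp3-expressing CD4+ T cells that restrain immune responses, sorted as CD4+CD25high from spleens. They came from 6 untreated male mice aged 45 weeks and kept under specific-pathogen-free conditions. The KO group held 3 DJ-1-/- mice and the WT group their 3 DJ-1+/+ littermates, with 1 Affymetrix array per mouse. DJ-1, encoded by Park7, is a redox-responsive protein linked to familial Parkinson disease, and the deletion was not limited to T cells by anything stated in the labels. The sources used here do not say which part of Park7 was deleted.

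Complex I takes electrons from NADH, passes them through a flavin and a chain of iron-sulfur clusters to ubiquinone, and pumps protons across the inner mitochondrial membrane. Its peripheral arm holds the N module, where NADH is oxidised, and the Q module, where ubiquinone is reduced, while its membrane arm carries the proton pumps. Core subunits are conserved from bacteria and bind the cofactors or pump protons, accessory subunits surround and stabilise them, and assembly factors help to build the complex without staying in it. Tregs are known for relying on mitochondrial respiration more than conventional effector T cells do.

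The targeted gene matched the labels: Park7 was at 9.48, 9.27 and 9.70 in WT replicates 1 to 3 and at 6.06, 5.96 and 5.71 in KO replicates 1 to 3. These and all gene levels below are log2(intensity + 16) of the deposited intensities, each gene being the median of its probe sets. The Treg markers Foxp3 (12.64 to 12.75 over the 6 arrays) and Il2ra (12.45 to 12.69) were bright in every array. KO replicate 1 stood apart, with the lowest median intensity (88.6, against 95.3 to 100.2 in the other arrays) and, averaged over its pairs with each of the others, the lowest correlation across probe sets (0.951, where the others had 0.957 to 0.964). Without it 9 of the 38 tested complex I genes turned sign, 11 moved over 1.5 times nearer to 0 and 4 over 1.5 times further from it, and for each of these the value without it stands beside the gene. Arrays from bulk cells cannot tell less RNA per cell from fewer cells of a type, and their number, 3 per group, limits the precision of every value.

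No complex I gene passed the test between KO and WT, yet most lay somewhat lower in KO. Of the 39 complex I genes 38 passed the filter on low levels, and 30 of these 38 had negative KO minus WT differences, against 59.7% of all tested genes. Their median difference was -0.14 log2 units, against -0.05 over all 13891 tested genes. Differences ran from -0.60 for Ndufc1 to 0.18 for Ndufaf4.

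In limma, 0 of 38 passed an adjusted p of 0.05 in either direction, against 0.274% of all tested genes, and the smallest adjusted p was 0.241. At an unadjusted p of 0.05, 4 were lower in KO, Ndufc1, Ndufv2, Ndufs8 and Ndufb9, where 7.67% of all tested genes were, and 0 were higher, where 2.99% were. An unmoderated test passed 0 after adjustment, as it did over all tested genes (0%). In 7 genes all 3 KO arrays lay below all 3 WT arrays, against 11.3% of all tested genes, and in 0 genes above, against 6.1%. The 7 were Ndufv1, Ndufv2, Ndufs8, Ndufa8, Ndufa13, Ndufb9 and Ndufc1. Ndufc1 passed the filter only through its WT arrays, since its KO mean lay under the floor. Over the 37 genes with both group means above the floor, 3 were lower at an unadjusted p of 0.05, 6 did not overlap, the smallest adjusted p in limma was 0.337 and the most negative difference was -0.46. With each array centred on its own median the median difference over all tested genes moved from -0.05 to 0.05, and 23 of the 38 were then negative, against 41.1% of all genes.

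**Figure D1:**
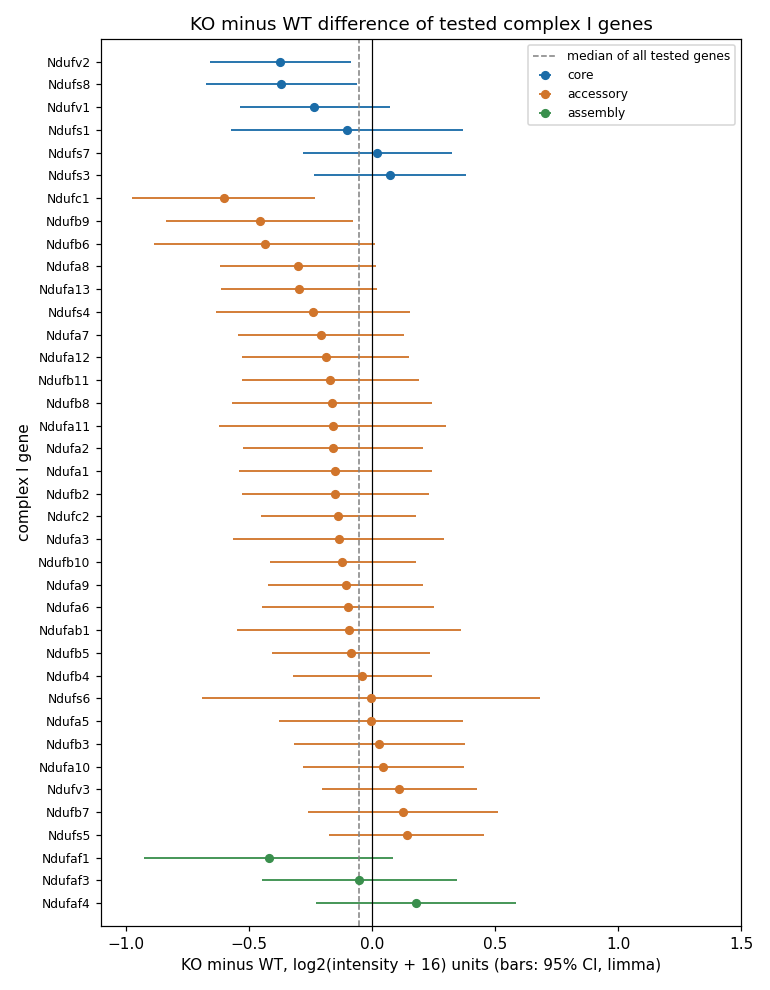
KO minus WT difference of each of the 38 tested complex I genes in log2(intensity + 16) units, with the 95% confidence interval from limma, ordered by class and size; the dashed line is the median of all tested genes (-0.05). 30 of the 38 points lie left of 0, and the intervals of Ndufv2, Ndufs8, Ndufc1 and Ndufb9 end below 0 before any adjustment for the number of genes.

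The promoters of the 3 members with the smallest limma p, Ndufc1, Ndufv2 and Ndufs8, are shown so that the letters before these genes can be read beside their values. They were taken from RefSeq on GRCm38.p6, a build that the array files do not name, as the 250 bases before the annotated start, read 5′ to 3′ along the gene. Capitals mark matches on either strand to the core letters bound by 4 known regulators of respiratory genes: CATGCGC for NRF1, CGGAAG for ETS factors such as GABPA, AAGATGG for YY1 and GGGCGG for Sp1. The letters of these motifs do not contain one another.
Ndufv2, chr17:66101560-66101809, minus strand: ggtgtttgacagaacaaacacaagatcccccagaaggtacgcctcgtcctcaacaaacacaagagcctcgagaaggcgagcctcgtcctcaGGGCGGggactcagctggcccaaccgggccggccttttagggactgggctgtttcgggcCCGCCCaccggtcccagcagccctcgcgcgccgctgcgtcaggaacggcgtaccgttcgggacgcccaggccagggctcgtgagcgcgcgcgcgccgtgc
Ndufs8, chr19:3912775-3913024, minus strand: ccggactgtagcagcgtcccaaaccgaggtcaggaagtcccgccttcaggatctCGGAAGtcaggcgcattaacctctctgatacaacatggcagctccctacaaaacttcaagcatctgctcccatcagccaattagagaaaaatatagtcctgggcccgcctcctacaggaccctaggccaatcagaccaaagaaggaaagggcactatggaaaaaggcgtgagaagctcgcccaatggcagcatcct
Ndufc1, chr3:51408956-51409205, minus strand: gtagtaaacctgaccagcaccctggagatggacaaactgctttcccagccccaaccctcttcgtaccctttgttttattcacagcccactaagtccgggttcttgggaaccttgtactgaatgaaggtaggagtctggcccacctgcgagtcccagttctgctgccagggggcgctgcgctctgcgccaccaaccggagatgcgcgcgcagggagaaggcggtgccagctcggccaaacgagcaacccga
The Ndufv2 stretch held 2 matches to the Sp1 letters and that of Ndufs8 held 1 match to the ETS letters. That of Ndufc1 held 0. Just after the annotated start lay a YY1 match in Ndufc1 and a further ETS match in Ndufs8.

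Among complex I genes 36 of 39 had such a window, which with 50 bases after the start is 300 bases long. The NRF1 letters stood in the windows of 6 of the 36 genes, in 15.8% of 38 member windows and in 3.91% of all 32851 windows of the table. They were found in Ndufa6, Ndufa8, Ndufa11, Ndufaf4, Ndufb6 and Ndufb8. The YY1 letters stood in 18.4% of member windows and 6.34% of all, the ETS letters in 28.9% and 16.85%, and the Sp1 letters in 52.6% and 35.66%. The windows of all genes include many of non-coding and predicted genes, and base composition was not matched. The median KO minus WT difference was -0.16 in the 6 genes with the NRF1 letters and -0.12 in the 29 tested genes without them. It was -0.11 in 11 genes with the ETS letters and -0.14 in 24 without. A match to such letters describes the sequence only.

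The core subunits lay on both sides of 0. 4 of 6 had negative differences and 3 had KO arrays that were all below the WT arrays, with a median of -0.17, which was -0.08 with the mean of the probe sets of each gene. Over all tested genes 11.3% had no overlap in this direction. 0 of 6 passed the adjusted test in limma (0.274% of all genes), and 2 were lower at an unadjusted p of 0.05 (7.67%).

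Ndufv2, an N-module subunit that carries a binuclear iron-sulfur cluster, was at 10.64, 10.57 and 10.61 in WT and at 10.23, 10.31 and 10.17 in KO. The WT arrays varied by an SD of 0.03, and every KO array lay below them, KO replicate 1 no further than KO replicate 3. In every array the median fell on the same probe set, 17346809, so these values and their spread are those of 1 of its 9 probe sets. The difference was -0.37 (SE 0.13, limma adjusted p = 0.337, n = 3 each), a level 1.29-fold lower, and -0.37 without KO replicate 1.

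Ndufs8, which carries the tetranuclear iron-sulfur clusters at the entry to the Q module, was at 10.05, 10.25 and 10.25 in WT and at 9.71, 9.84 and 9.90 in KO. The groups did not overlap. The difference was -0.37 (SE 0.14, adjusted p = 0.375), and -0.32 without KO replicate 1.

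Ndufv1, the subunit that binds NADH and the flavin, was at 9.45, 9.45 and 9.66 in WT and at 9.21, 9.36 and 9.30 in KO. The difference was -0.23 (SE 0.14, adjusted p = 0.588). Its probe sets disagreed: 9 of 16 were higher in KO and 7 lower, from -0.44 to 0.57, and the mean over probe sets gave a difference of 0.02. A direction for Ndufv1 therefore depends on how its probe sets are summarised.

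The other core subunits had overlapping groups. Ndufs1, the largest subunit of the N module, stood at 8.10, 8.19 and 7.91 in WT and 7.47, 8.19 and 8.24 in KO. Only KO replicate 1 was low there, and the difference of -0.10 (95% confidence interval -0.57 to 0.37) became 0.15 without it. Ndufs7, which carries the last iron-sulfur cluster before ubiquinone, was at 12.38, 12.41 and 12.41 in WT and 12.51, 12.50 and 12.27 in KO. Its KO arrays lay on both sides of the tight WT values, with a difference of 0.02 (interval -0.28 to 0.33), or -0.02 without KO replicate 1. Ndufs3, a structural subunit of the Q module, differed by 0.07 (interval -0.23 to 0.38), the most positive core difference, and by 0.15 without that array.

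**Figure D2:**
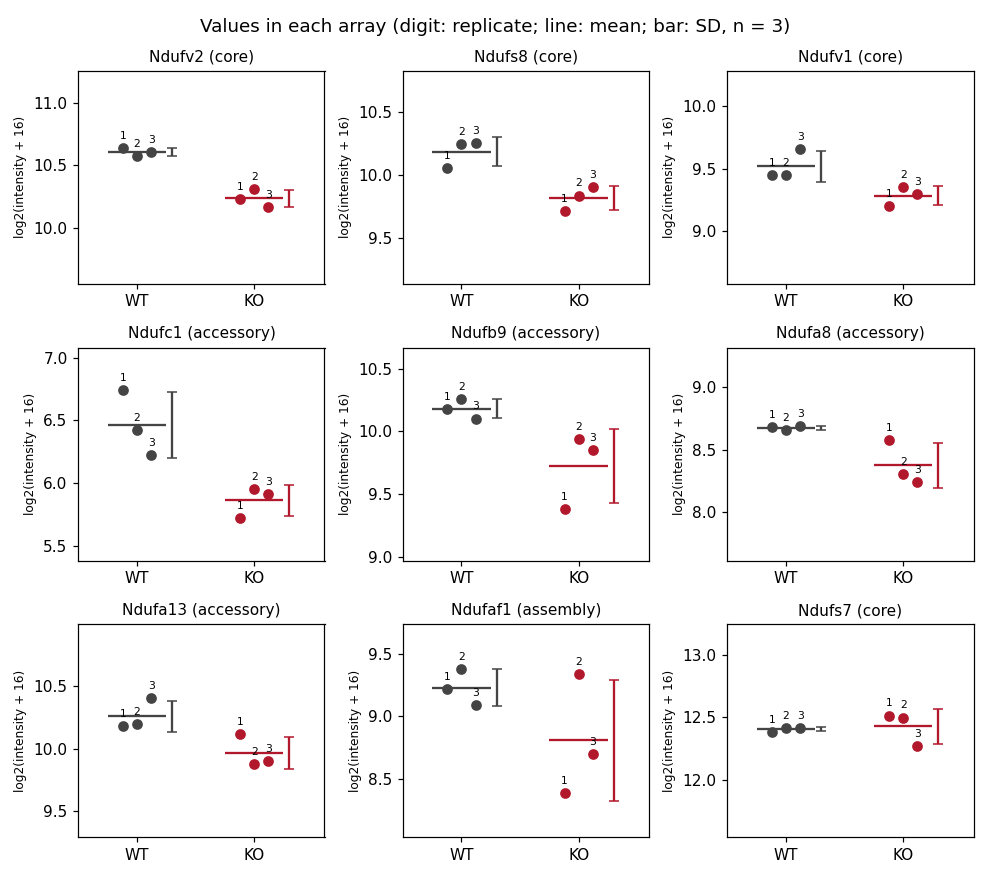
Level of 9 complex I genes in each array, log2(intensity + 16), with the replicate number beside each point, the group mean as a line and the SD (n = 3) as a bar; each panel spans the same range of log2 units. KO and WT do not overlap in 7 of the panels, while Ndufaf1 and Ndufs7 overlap, and KO replicate 1 is the lowest KO array in Ndufs8, Ndufv1, Ndufc1, Ndufb9 and Ndufaf1 and the highest in Ndufa8, Ndufa13 and Ndufs7.

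Accessory subunits formed the largest class. 24 of 29 had negative differences and 5 positive, with a median of -0.14, and 0 passed the adjusted test in limma. At an unadjusted p of 0.05, 2 were lower, against 7.67% of all tested genes. In 4, Ndufa8, Ndufa13, Ndufb9 and Ndufc1, the groups did not overlap, against 11.3% of all. Both counts lie near those shares. All 29 passed the filter on low levels.

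Ndufc1, a small single-pass subunit of the proximal membrane arm, had the most negative difference of all complex I genes. It was at 6.74, 6.42 and 6.22 in WT and at 5.72, 5.95 and 5.91 in KO. The KO arrays all lay below the WT arrays, with a difference of -0.60 (SE 0.17, adjusted p = 0.241), or 1.52-fold. The gene was dim, with a KO mean of 5.86 against a filter floor of 5.90, so it passed the filter only through the WT arrays. This leaves the size uncertain. The difference was -0.75 with 1 added to the intensities in place of 16, and -0.37 with 64 added. It was -0.40 with the mean of its probe sets, and ran from -0.72 to -0.46 with an array left out. All 8 of its probe sets were lower in KO, from -0.98 to -0.02, 3 of them below the floor.

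In the same arm, Ndufa8, a cysteine-rich subunit on the intermembrane-space face, was at 8.68, 8.66 and 8.69 in WT and at 8.58, 8.31 and 8.24 in KO. WT varied by an SD of 0.02 and the KO arrays were all lower, KO replicate 1 the least. The difference was -0.30 (SE 0.14, adjusted p = 0.500), -0.40 without KO replicate 1 and -0.16 with the mean of its probe sets. Ndufa13, also known as GRIM-19, was at 10.18, 10.20 and 10.40 in WT and at 10.11, 9.88 and 9.90 in KO, a difference of -0.30 (SE 0.14, adjusted p = 0.509) that was -0.15 with the mean of its probe sets. The other members tested there were Ndufa1, Ndufa3, Ndufa10, Ndufa11, Ndufc2 and Ndufs5. Of these Ndufa10 (0.05) and Ndufs5 (0.14), the most positive accessory gene, lay above 0, and Ndufa11 (-0.16), Ndufa3 (-0.14) and Ndufc2 (-0.14) below it. Without KO replicate 1 Ndufa10 turned to -0.06 and Ndufa3 to 0.06. The proximal arm held 9 members in all, 7 of them negative, and its median was -0.15.

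Ndufa1, a small X-linked subunit needed for assembly of the membrane arm, differed by -0.15 and by 0.02 without KO replicate 1. It was at 6.23, 6.40 and 6.47 in WT and at 5.89, 6.28 and 6.49 in KO, and KO replicate 1 alone lay under the WT range.

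The distal membrane arm had 9 negative differences among 11 members and a median of -0.12. Ndufb9, a subunit of the LYR protein family at the far end of this arm, was at 10.18, 10.26 and 10.10 in WT and at 9.38, 9.94 and 9.85 in KO. No KO array reached the WT range and KO replicate 1 lay far below the others, with a difference of -0.46 (SE 0.17, adjusted p = 0.376) that was -0.29 without that array. All 5 of its probe sets were lower, from -0.63 to -0.12.

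Ndufb6, a membrane subunit of the same arm, was at 9.36, 9.24 and 8.99 in WT and at 8.37, 9.12 and 8.79 in KO. KO replicate 2 lay inside the WT range and KO replicate 1 lowest. The difference was -0.44 (SE 0.20, adjusted p = 0.484), and -0.24 without KO replicate 1 and -0.27 with the mean of its probe sets. Ndufab1, the mitochondrial acyl carrier protein, which also serves fatty acid and lipoate synthesis, was at 7.13, 7.31 and 7.19 in WT and at 6.64, 7.28 and 7.43 in KO. Its difference of -0.09 turned to 0.15 without KO replicate 1 and to 0.01 with median centring. Ndufb11 (-0.17), Ndufb8 (-0.16), Ndufb2 (-0.15), Ndufb10 (-0.12) and Ndufb5 (-0.09) lay below 0 and Ndufb3 (0.03) and Ndufb7 (0.12) above it, all with overlapping groups. Without KO replicate 1 Ndufb2 turned to 0.02 and Ndufb7 to -0.004, Ndufb11 (-0.04), Ndufb10 (-0.07) and Ndufb5 (-0.01) lay nearer to 0, and Ndufb3 (0.09) lay further from it. Ndufb4 (-0.04) rests on 1 probe set, since its others are annotated to a near-identical copy as well, so its value is uncertain. The RefSeq table also lists pseudogene copies of Ndufa11, Ndufa12, Ndufab1, Ndufs5 and Ndufs6, whose signals may be shared.

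Among the N-module subunits, core and accessory together, 7 of 8 were negative with a median of -0.17. Beside Ndufv1, Ndufv2 and Ndufs1 these were Ndufs4 (-0.24), a late-joining subunit whose loss causes Leigh-like disease in mice, Ndufa12 (-0.19), Ndufa2 (-0.16) and Ndufs6 (-0.01), while Ndufv3 was at 0.11. Ndufs6 had the widest KO spread of all, an SD of 0.66. Without KO replicate 1 the differences were -0.05 for Ndufs4, -0.09 for Ndufa2, -0.13 for Ndufs6 and 0.06 for Ndufv3. In the Q module 5 of 7 were negative with a median of -0.10, its accessory members being Ndufa7 (-0.21), Ndufa9 (-0.11), Ndufa6 (-0.10) and Ndufa5 (-0.01). For Ndufa7, a small Q-module subunit, the KO values were 7.08, 7.50 and 7.18 against 7.46, 7.50 and 7.43 in WT. KO replicate 2 matched WT while KO replicates 1 and 3 were lower. Without KO replicate 1 Ndufa7 was at -0.12 and Ndufa5 turned to 0.09.

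Of the 4 assembly factors 3 were tested, with differences on both sides of 0 and a median of -0.05. That median turned to 0.05 with median centring, to 0.11 when KO replicate 3 was left out and to 0.02 when WT replicate 1 was, but it was -0.19 without KO replicate 1, -0.16 with the mean of probe sets and -0.21 with no filter. 0 of 3 passed the adjusted test in limma, 0 of 3 passed an unadjusted p of 0.05, and all had overlapping groups. Ndufaf2, which shares ancestry with Ndufa12 and holds its place during assembly, lay below the filter and was not tested.

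Ndufaf1, part of the assembly complex of the membrane arm, was at 9.22, 9.38 and 9.09 in WT and at 8.39, 9.34 and 8.70 in KO. KO replicate 2 lay inside the WT range, the others below it. The difference was -0.42 (SE 0.23, adjusted p = 0.564), -0.21 without KO replicate 1 and -0.69 without KO replicate 2. All 7 of its probe sets were lower in KO, from -0.53 to -0.07.

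Ndufaf3 and Ndufaf4 act together early in the building of the Q module. Ndufaf3 was at 9.65, 9.51 and 9.38 in WT and at 9.74, 9.51 and 9.13 in KO, a difference of -0.05 that changed sign when WT replicate 1 (0.02) or KO replicate 3 (0.11) was left out and was -0.19 without KO replicate 1. Ndufaf4 was at 7.37, 7.37 and 6.94 in WT and at 7.59, 7.50 and 7.12 in KO. Its difference of 0.18 was the most positive of all complex I genes, yet 6 of its 9 probe sets were lower in KO, and the mean of the probe sets gave -0.03. It was 0.08 without KO replicate 1. One probe set, 17412281, was higher by 1.21, from a dim WT mean of 5.29.

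Ndufa4, outside these classes, was at 8.78, 8.85 and 8.99 in WT and at 7.89, 8.86 and 8.60 in KO. KO replicate 1 was lowest, and the groups overlapped (-0.42, SE 0.23, adjusted p = 0.564, and -0.14 without KO replicate 1). Ndufa4l2, its hypoxia-induced relative, lay below the filter in these cells.

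The lower values were uneven across the KO mice. Taking each gene relative to its WT mean, the median of the 38 genes was -0.21 in KO replicate 1, -0.03 in KO replicate 2 and -0.13 in KO replicate 3, and from -0.03 to 0.03 in the WT arrays. Over all tested genes the same medians were -0.12, 0.00 and -0.01. KO replicate 1 held the lowest value of 17 of the 38 genes, against 38.24% of all tested genes. KO replicate 3 held the lowest value of 10 of the 38, against 12.81% of all. The part of array-wide level in these values was not tested. With KO replicate 1 left out the median of the 38 genes was -0.07, with 27 negative, against -0.01 and 51.8% over all tested genes. The class medians were then -0.11 for core, -0.07 for accessory and -0.19 for assembly genes, 5 genes were lower at an unadjusted p of 0.05 (6.75% of all genes), and 0 passed the adjusted test (0.266%).

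**Figure D3:**
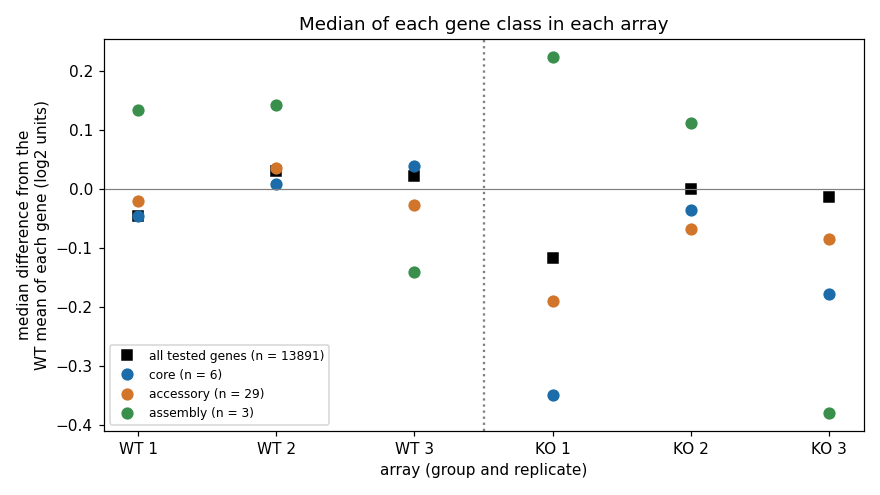
Median, over the genes of a class, of the difference from each gene's WT mean in log2 units, for each of the 6 arrays; squares are all 13891 tested genes and circles the complex I classes. Core and accessory medians lie below the all-gene median in each KO array, most in KO replicate 1 for core genes (-0.35), while the 3 assembly genes scatter widely in both groups.

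At the level of single probe sets, 222 of 317 Nduf probe sets were lower in KO and 95 higher, where 53% of all probe sets were lower. 0 of the 317 passed an adjusted p of 0.05 in limma over all probe sets, against 0.00111% of all probe sets. At an unadjusted p of 0.05, 15 were lower, where 4.37% of all probe sets were, and 8 higher, where 3.23% were, so both counts are near the background. Probe sets of 1 gene share its transcript and are not independent. In Ndufv2 (9 probe sets), Ndufs8 (8), Ndufc1 (8), Ndufaf1 (7), Ndufb9 (5) and Ndufa6 (4) every probe set was lower in KO. Differences of these genes depend in size on the summary: the mean of the probe sets gave -0.25 for Ndufv2, -0.27 for Ndufs8, -0.40 for Ndufc1, -0.29 for Ndufaf1 and -0.39 for Ndufb9.

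**Figure D4:**
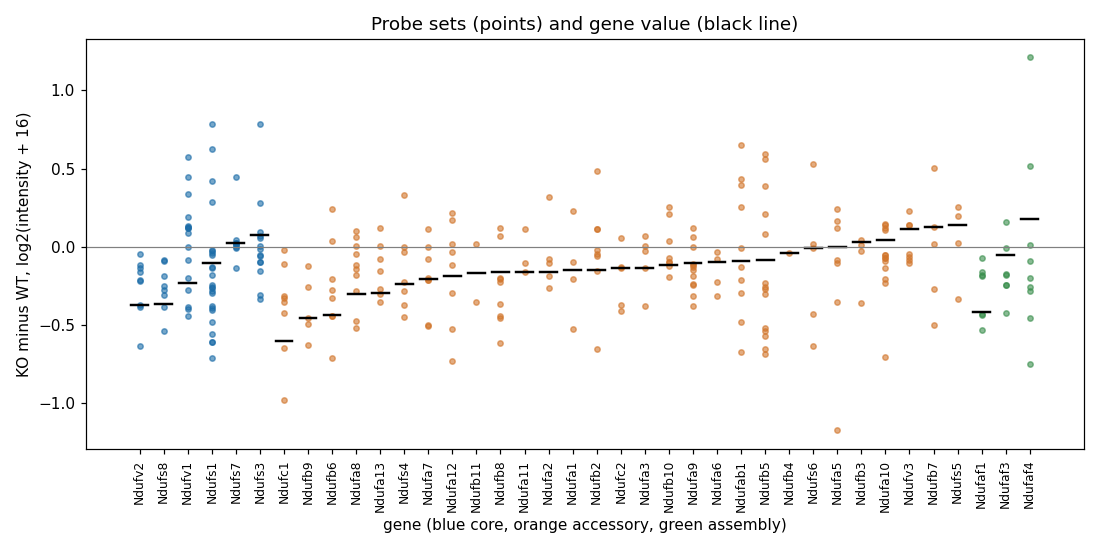
KO minus WT difference of every probe set (points) of the 38 tested complex I genes, in log2(intensity + 16) units, with the difference of the gene value as a black line. All points of Ndufv2, Ndufs8, Ndufc1, Ndufb9 and Ndufaf1 lie below 0, whereas those of Ndufv1 and Ndufaf4 lie on both sides.

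The rest of the respiratory chain was read from lists of its other complexes. No member of any list passed the adjusted test in limma. At an unadjusted p of 0.05 the lower members numbered 2 of 9 assembly genes not named Nduf, 0 of 6 complex II, 0 of 10 complex III, 1 of 22 complex IV and 2 of 20 ATP synthase genes and 0 of 10 regulators, with 1 ATP synthase gene higher. Over all tested genes 7.67% were lower and 2.99% higher. The 7 mitochondrially encoded complex I genes were not analysed here. Median differences were -0.23 for the further assembly genes, -0.12 for complex II, -0.12 for complex III and -0.13 for complex IV. They were -0.08 for ATP synthase and -0.05 for the regulators. The medians of complex I (-0.136) and complex IV (-0.131) were nearly equal, and only the further assembly genes lay clearly lower. The complex IV list held Ndufa4 (-0.42) and had 7 of 22 genes positive. Among these were the dim Cox4i2 (0.12), Cox6a2 (0.08), Cox6b2 (0.14) and Cox7a1 (0.14). The order of these medians therefore depends on which genes were listed. No test compared them.

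Among further assembly genes 8 of 9 were negative. Nubpl, which delivers iron-sulfur clusters to complex I, was at 6.52, 6.94 and 7.02 in WT and at 5.90, 6.36 and 6.63 in KO. Its groups overlapped, and the difference of -0.53 (adjusted p = 0.409) was -0.33 without KO replicate 1 and -0.07 with the mean of its probe sets. Acad9, the acyl-CoA dehydrogenase that partners Ndufaf1, was at 8.31, 8.48 and 8.21 in WT and at 7.93, 8.18 and 7.82 in KO. The groups did not overlap (-0.36, adjusted p = 0.440), though the mean of its probe sets gave -0.11.

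Atp5j2, a membrane subunit of ATP synthase, lay on the other side with a difference of 1.00 (SE 0.23, adjusted p = 0.154). It was at 6.73, 6.63 and 5.92 in WT and at 7.61, 7.51 and 7.14 in KO, with every KO array above every WT array, and the mean of its probe sets gave 0.26. It was past the threshold with the replicate number as a block (adjusted p = 0.0298). Atp5s, a factor associated with ATP synthase, differed by -0.70 (adjusted p = 0.339), and by -0.42 without KO replicate 1. In complex IV the leading genes were Cox7a2 (-0.59, and -0.25 without KO replicate 1), a subunit, and Sco1 (-0.33, and -0.16 without that array), a copper chaperone. In complex III Uqcrc2 (-0.34, and -0.22 without KO replicate 1), a core protein, and Uqcrb (0.44), which lies at the ubiquinone site, differed in opposite directions. Of complex II, Sdhc (-0.25) and Sdha (-0.17, and -0.10 without KO replicate 1) led. The leading regulators were Tfam (-0.27), which packages and transcribes mitochondrial DNA, and Tfb1m (-0.27, and -0.14 without KO replicate 1), a mitochondrial ribosomal RNA methyltransferase. Tfam was at 0.00 with the mean of its probe sets.

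**Figure D5:**
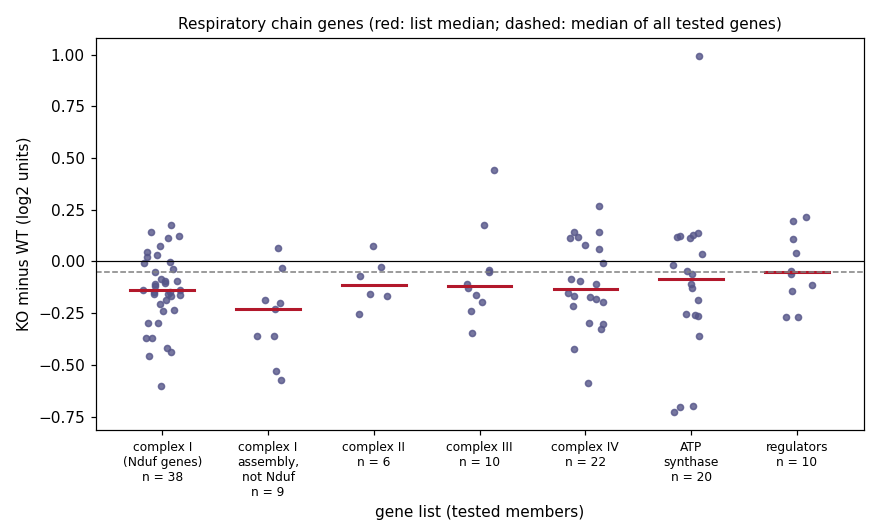
KO minus WT difference in log2 units of tested genes of complex I and of 6 lists of related genes; each point is a gene, red lines are list medians and the dashed line is the median of all tested genes. List medians lie between -0.23 and -0.05, and Atp5j2 at 1.00 is the highest point.

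Most genes listed as markers of other cells and of dividing cells also lay lower in KO, though by unequal amounts. Over all tested genes 59.7% were negative and 0.274% passed the adjusted test in limma in either direction, and the lists are short. Of 7 tested B cell markers all were negative and 2 fell, H2-Ab1 (-1.24) and H2-Aa (-1.26), with summed intensities of 5570 to 5908 in WT and 3400 to 4086 in KO. Both are MHC class II genes, as H2-Eb1 (-0.60) is, and Cd74 (-0.67) is the class II invariant chain. The B-lineage genes of the list lay nearer to 0, Cd79a at -0.24, Cd79b at -0.17 and Cd22 at -0.03, and did not pass the test. Macrophage markers (6 of 6 negative, with Vcam1 past the test) summed to 705.8 to 963.3 and 515.7 to 654.4. C1qa (-0.085) and Cd68 (-0.14) moved least among them. NK markers (6 of 7 negative, with Gzmk past it) summed to 3330 to 4595 and 1924 to 2868. Klrb1c was higher in KO (0.28), and Prf1 hardly differed (-0.007). Plasma cell markers (4 of 5 negative) summed to 2592 to 3555 and 2228 to 2749, and erythroid markers (2 of 2) to 155.4 to 200.0 and 97.9 to 183.9. The plasma cell sums rest mostly on Xbp1, Irf4 and Prdm1 (mean levels 10.63, 9.40 and 8.61), with Igj (6.83) and Sdc1 (6.06) far dimmer. The NK sums rest mostly on Nkg7 (10.23) and Ccl5 (10.14). How far Tregs themselves express the genes of these lists was not tested. The B cell marker Ms4a1, the macrophage markers Emr1 and Cd14, the NK marker Klrd1 and the erythroid Alas2 had mean levels under the filter floor, from 5.41 to 5.76. The 6 proliferation genes were all negative with 0 past the test, at 2022 to 2371 in WT and 1032 to 1607 in KO. The 6 Treg and CD4 markers summed to 29830 to 30030 and 27760 to 29080, with 0 past the test. The part of these markers in the complex I differences was not tested.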

How the data were processed

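Gene expression was measured on 6 Affymetrix Mouse Gene arrays, 3 KO and 3 WT, grouped by their titles. Per the labels, the authors ran the exon analysis of Affymetrix Expression Console 1.4 and used PLIER to turn the probes of each set into 1 intensity; the deposited intensities are on a linear scale, and background correction, normalization and annotation version are not stated there.

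Values were transformed as log2(intensity + 16). Probe sets with a single symbol were combined into genes by their median, and genes under the 40th percentile of mean level (5.90) were left out, which left 13891. The test was limma's moderated test (version 3.58.1, R 4.3.3; lmFit, eBayes, two-sided, Benjamini-Hochberg over all tested genes, threshold 0.05). On simulated arrays of 13891 genes it recovered 95% of those made to differ by 1 log2 unit, and 4.41% of calls were false. Its noise was independent between genes. Differences under 1 log2 unit were not simulated, while those of complex I genes ran from -0.60 to 0.18. The simulation therefore does not show how often differences of that size would be found. An exact permutation test of 3 against 3 cannot go below 0.10.

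The complex I genes and all lists were chosen with earlier results of these data known. Named were Park7, members without overlap of the groups, those with the smallest p or the extreme difference per class, Ndufa1 and Ndufab1, and the 2 leading genes per further list; others appear by class. Titles number the mice, but deviations of same-numbered arrays correlated at 0.15, 0.17 and 0.01, so the numbers were not taken as pairs. Alternatives were other pseudocounts, filters, probe-set summaries, normalizations and variance models, the replicate block and leaving out each array. Promoters were read from a RefSeq table of GRCm38.p6.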

Additional observations from a re-analysis of the deposited data

How the results depend on the processing

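No complex I gene passed the adjusted test under any of the 17 alternatives or as a single probe set. Of 268 values of the 16 named Nduf genes under alternatives 9 changed sign, and the lowest adjusted p in these fits was 0.182. Most of the 16 were named for a small p, an extreme difference or a lack of overlap in these arrays, so their signs do not stand for those of the other members. Without KO replicate 1 alone, 9 of all 38 tested members turned sign. The count lower at an unadjusted p of 0.05, 4 as reported, was 7 with a pseudocount of 64 (8.08% of all genes), 8 with bright probe sets (of 34 genes, where 7.72% of all genes were), 2 with median centring (Ndufb9 and Ndufc1; 4.8%), and 2 to 6 with an array left out, 2 without WT replicate 2 (4.33%). The count without overlap, 7 lower and 0 higher, was 4 lower with median centring (Ndufb9, Ndufc1, Ndufs8 and Ndufv2; 6.86% of all genes) and 8 to 13 lower with an array left out (14.4% to 19.9% of all), 13 without KO replicate 2 (19.9%). It was 1 higher with bright probe sets (Ndufa5, where 8.39% of all genes were). It was 1 higher (Ndufs3) with quantile normalization (8.25% of all) or median centring (11.4%). With an array left out it was 0 to 3 higher (8.59% to 13.7% of all). Median centring moved the medians to -0.066 for core, -0.034 for accessory and -0.034 for all complex I genes, and the accessory median ran from -0.18 to -0.067 with an array left out. Sign changes were Ndufaf4 (-0.032 with the mean of probe sets, -0.082 with bright probe sets), Ndufv1 (0.022 with that mean), and, with median centring, Ndufab1 (0.009) and Ndufaf3 (0.052). With arrays left out Ndufa1 ran from -0.29 to 0.016, Ndufab1 from -0.25 to 0.15 and Ndufaf3 from -0.19 to 0.11. Causes were not tested. With the replicate block 5 genes were lower at an unadjusted p of 0.05, where 9.39% of all genes were, and 0 passed after adjustment. Over all genes 67 passed with the block against 38 without it. Deviations of same-numbered arrays correlated at 0.15, 0.17 and 0.01. Park7 missed the threshold in the unmoderated test (adjusted p = 0.0905). Dim probe sets limit several named genes. Those under the floor numbered 2 of 4 in Ndufa1 and in Ndufs5, 3 of 8 in Ndufc1 and in Ndufb6, and 2 of 9 in Ndufaf4.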
